A study of Mus musculus with 29 samples.

Results

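The genes described here encode the proteins of the mitochondrial ribosome. They were taken as every gene of the RNA-seq table whose symbol starts with Mrpl or Mrps followed by a number, which gave 77 of 24062 genes. The study isolated mouse retinal neurons by fluorescence-activated cell sorting to compare bipolar cells, the interneurons that relay light signals, with photoreceptors. RNA-seq was available for 15 libraries, 3 from each of 5 populations, and chromatin accessibility by ATAC-seq for 12 libraries, 2 from each of 6 populations. All bipolar populations carried *Otx2*-GFP+/-, in which GFP is driven from one *Otx2* allele, and were sorted by fluorescence at postnatal days 42 to 48. The pan-bipolar (pan-BC) RNA libraries had this genotype alone, whereas ON bipolar (ON-BC), OFF bipolar (OFF-BC) and all bipolar ATAC-seq libraries also carried *Grm6*-YFP+/+, in which the *Grm6* promoter marks ON bipolar cells. OFF-BC were double sorted. Rods came from *Nrl*-eGFP mice, and the population labelled blue cone came from Nrl-eGFP;NrlKO mice, whose photoreceptors lack the rod-fate factor *Nrl* and stand in for cones. Both were collected at postnatal day 56 and re-analysed from an earlier study, so cell class, age and study of origin cannot be told apart in any bipolar-photoreceptor comparison. Green cones (Opn1mw-GFP, postnatal day 56) were profiled by ATAC-seq only.

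Mitochondrial ribosomes translate the few proteins encoded by mitochondrial DNA, all of them subunits of the respiratory chain and ATP synthase. Their proteins are encoded in the nucleus, made in the cytosol and imported, and assemble with mitochondrial rRNA into a small subunit, which reads the mRNA, and a large subunit, which forms peptide bonds. Some of these proteins have a counterpart in bacterial ribosomes, and others are found only in mitochondria. Photoreceptors keep dense mitochondria in the inner segment, and bipolar cells carry them in the soma and axon terminal. Of the 77 genes, 50 encode large-subunit proteins and 26 small-subunit proteins. 46 were classed as having a bacterial counterpart and 30 as mitochondria-specific. The symbols do not always match the subunit, since *Mrps18a* and *Mrps30* encode large-subunit proteins. *Mrps36* is in neither class, because its product is a subunit of the alpha-ketoglutarate dehydrogenase complex.

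Several promoters of these genes share short sequence elements. RefSeq promoter sequences (GRCm38.p6, 250 bases before to 50 bases after the transcription start) were matched by symbol for 68 of the 77 genes, giving 74 promoters. The letters CCGGAAG, the core bound by ETS-family factors such as GABPA, stood on either strand in 33.8% of these promoters and in 8.86% of all 32851 promoters. AAGATGGC, a YY1-type element, stood in 16.2% and 2.75%, and GCGCATGC, an NRF1-type element, in 10.8% and 2.71%. The TATA box letters TATAAA stood in 6.76% and 13.6%, and the CAAT box in 12.2% and 14.7%. The median GC content was 58.5% against 52.7%. In no promoter of these genes did an ETS and a YY1 match share 3 bases, the only kind of overlap searched. These matches are a description of letters, with no binding measured. The 250 bases before the start of 6 genes are given 5′ to 3′ on the gene's strand (1 RefSeq start per gene). Matches to the ETS, YY1 and NRF1 letters are in capitals. These genes are examples, picked after their values were seen, of genes higher or lower in bipolar cells than in rods.
Mrpl17, chr7:105811088-105811337, minus strand: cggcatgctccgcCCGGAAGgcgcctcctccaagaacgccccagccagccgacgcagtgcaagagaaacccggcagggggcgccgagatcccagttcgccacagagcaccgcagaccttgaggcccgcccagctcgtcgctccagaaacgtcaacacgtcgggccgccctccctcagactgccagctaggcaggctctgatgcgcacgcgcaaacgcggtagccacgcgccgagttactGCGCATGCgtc
Mrpl33, chr5:31613701-31613950, plus strand: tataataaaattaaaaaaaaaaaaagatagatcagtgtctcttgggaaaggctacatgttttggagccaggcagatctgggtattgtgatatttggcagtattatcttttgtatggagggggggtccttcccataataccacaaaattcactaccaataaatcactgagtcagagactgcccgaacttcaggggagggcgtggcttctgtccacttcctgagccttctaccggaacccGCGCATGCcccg
Mrpl36, chr13:73330759-73331008, plus strand: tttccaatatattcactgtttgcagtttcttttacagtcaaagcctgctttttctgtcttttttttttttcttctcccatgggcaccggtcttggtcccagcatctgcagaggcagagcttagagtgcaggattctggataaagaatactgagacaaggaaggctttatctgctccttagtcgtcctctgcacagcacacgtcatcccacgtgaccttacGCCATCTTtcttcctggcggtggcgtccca
Mrpl53, chr6:83108858-83109107, plus strand: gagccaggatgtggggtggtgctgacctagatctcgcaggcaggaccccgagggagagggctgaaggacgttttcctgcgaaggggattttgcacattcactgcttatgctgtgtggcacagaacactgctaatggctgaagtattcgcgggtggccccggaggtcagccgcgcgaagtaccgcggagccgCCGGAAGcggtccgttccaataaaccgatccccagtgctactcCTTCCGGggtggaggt
Mrpl32, chr13:14613038-14613287, minus strand: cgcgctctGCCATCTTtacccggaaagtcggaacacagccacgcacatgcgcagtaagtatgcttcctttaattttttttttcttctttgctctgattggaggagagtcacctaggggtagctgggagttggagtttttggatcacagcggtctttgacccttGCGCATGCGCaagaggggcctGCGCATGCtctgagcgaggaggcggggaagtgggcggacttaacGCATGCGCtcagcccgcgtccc
Mrpl1, chr5:96209865-96210114, plus strand: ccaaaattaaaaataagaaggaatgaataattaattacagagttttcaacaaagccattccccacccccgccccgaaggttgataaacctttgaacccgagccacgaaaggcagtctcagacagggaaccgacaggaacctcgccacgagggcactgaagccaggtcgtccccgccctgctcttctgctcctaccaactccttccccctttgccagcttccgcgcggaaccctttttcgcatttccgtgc
*Mrpl17*, *Mrpl33*, *Mrpl36* and *Mrpl53* were higher in bipolar cells than in rods, *Mrpl32* and *Mrpl1* were lower, and both sets held promoters with matches. *Mrpl1* had none of the 3 elements. In addition, 31 of the 77 genes (40.3%) had the start of another gene on the opposite strand within 1000 bp upstream or 100 bp downstream of their own, compared with 2630 of 21283 table genes with a RefSeq start (12.4%). In the pair *Mrpl46* and *Mrps11* both genes encode mitochondrial ribosomal proteins, and their starts lie 42 bp apart.

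The RNA values are read counts per gene divided by one size factor per library, termed normalized read counts. The RNA-seq libraries held 12329548 to 26266746 counted reads and the ATAC-seq libraries 4176776 to 12345845. The sorted populations carried their markers. Summed counts of 8 rod markers were 1822805 to 2504629 in rods and at most 42037 in any bipolar library, and those of 10 bipolar markers were 118816 to 166458 in bipolar libraries and at most 38071 in photoreceptors. Blue cone libraries also held summed rod markers, of 172376 to 261848, and the part of these in the values was not tested. Summed counts of 7 cone markers were 1483398 to 1706596 in blue cones and 10697 to 10828 in rods. *Nrl* was at 14181 ± 2570 (SD, n = 3) in rods and 636 ± 141 in the *Nrl*-deficient population. The third OFF-BC library stood apart, with summed counts of 7 cone markers of 90608 against 20860 and 22439 in the other OFF-BC libraries. The labels do not say which libraries come from separate animals, so p-values measure only the spread between these samples.

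All 77 genes passed the filter on low counts, which kept 14024 genes. Together they took 0.301% ± 0.00624 (SD, n = 3) of counted reads in rods and 0.343% ± 0.0469 in blue cones. Among bipolar populations the share was 0.618% ± 0.0218 for ON-BC, 0.630% ± 0.0382 for pan-BC and 0.726% ± 0.0348 for OFF-BC. Every bipolar library, at 0.587% or more, lay above every photoreceptor library, at 0.394% or less. As summed normalized counts, pan-BC libraries were at 89377 to 103607, ON-BC at 89248 to 100593 and OFF-BC at 102078 to 119533, whereas rods were at 56391 to 64756 and blue cones at 54883 to 76649. The bipolar and photoreceptor ranges did not overlap on either scale, but rods overlapped blue cones and OFF-BC overlapped pan-BC as summed counts. In sorted bulk material, a different number of cells of a type and a different amount of RNA per cell cannot be told apart.

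**Figure D1:**
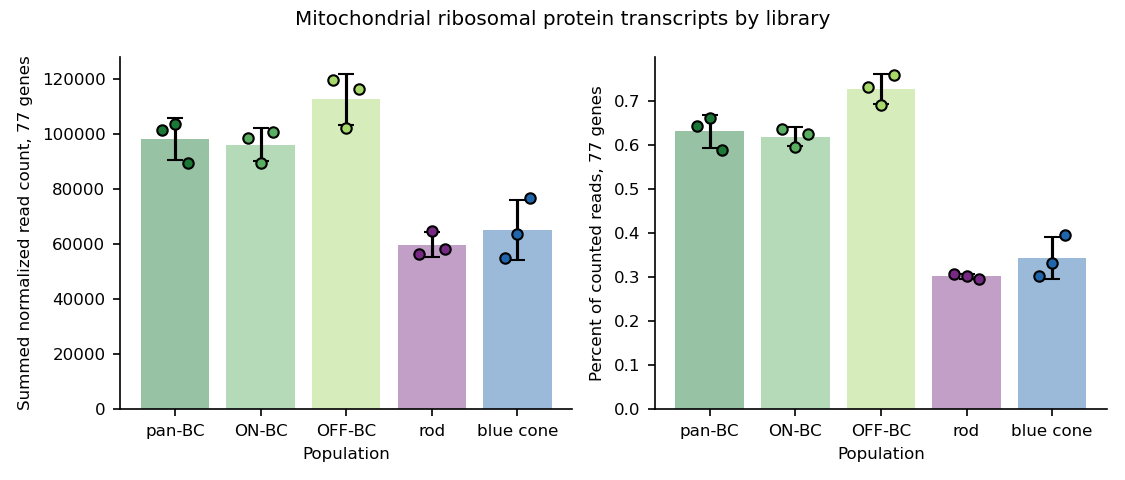
Summed normalized read count (left) and percent of counted reads (right) of the 77 genes in each RNA-seq library (points), with the mean (bar) and SD (error bar) of 3 libraries per population. The 9 bipolar libraries lie at 0.587% or more and the 6 photoreceptor libraries at 0.394% or less.

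Levels were compared between genes as normalized read count per kb of exon. Across the 15 libraries, the median over the 77 genes was 643 per kb, compared with 109 per kb for the 13172 tested genes with a known length, and 75 of the 77 genes were above the latter value. The 5 highest genes were *Mrpl28* (3452 per kb), *Mrpl18* in the central protuberance (3328 per kb), *Mrps21* (3036 per kb), *Mrpl42* (2884 per kb) and *Mrpl33* (2704 per kb). The 5 lowest were *Mrps36* (136 per kb), *Mrpl1* of the stalk that guides departing tRNA (120 per kb), *Mrpl3* (114 per kb), *Mrps30* (46.7 per kb) and *Mrpl23*, at the exit of the peptide tunnel (23.3 per kb). OFF-BC held the highest mean of 55 genes, pan-BC of 7, ON-BC of 2, rods of 7 and blue cones of 6. Rods held the lowest mean of 41 genes and blue cones of 22. The like shares of all tested genes were not counted, and OFF-BC was not tested against pan-BC, rods or blue cones.

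To ask how bipolar cells differ from rods, log2 fold changes were fitted for pan-BC minus rod with limma. A pair of calls is used throughout, each at an adjusted p under 0.05 over all tested genes: different from no change, and past 2-fold, the stricter test that the change exceeds 2-fold. Relative to rods, 53 of the 77 genes were higher in pan-BC (68.8%, against 44.2% of all tested genes) and 11 were lower (14.3%, against 35.4%). The median log2 fold change was 0.72, compared with 0.21 over all tested genes. Past 2-fold, limma called 14 genes higher (18.2%, against 27.8% of all tested genes) and 0 lower, against 15.8% of all tested genes. At an unadjusted p under 0.05 it also called 0 lower. edgeR's quasi-likelihood test called 2 genes lower past 2-fold at the same adjusted threshold, *Mrps24* (adjusted p = 0.0384) and *Mrpl1* (adjusted p = 0.0471). Under scaling by total reads, which raised the median of all tested genes to 0.55, 30 genes were higher past 2-fold. For 55 of the 77 genes every pan-BC library lay above every rod library, compared with 46.0% of all tested genes. Pan-BC libraries also held summed rod markers of 33444 to 42037 and cone markers of 40656 to 66441, and the part of these in the values was not tested.

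The largest difference was in *Mrps21*, the mitochondrial counterpart of bacterial protein bS21 in the small subunit. The 3 pan-BC libraries held 2198, 2264 and 1927 normalized counts of it, the rod libraries 286, 509 and 456, and the blue cone libraries 416, 505 and 672. The lowest bipolar library was thus far above the highest photoreceptor library. Relative to rods this was a log2 fold change of 2.39 (SE 0.19, adjusted p = 4e-09), or 5.23-fold, and relative to blue cones one of 2.03 (SE 0.19, adjusted p = 4.67e-08). ON-BC (2215, 1978 and 2219) overlapped pan-BC, and OFF-BC (2659, 2231 and 2690) lay in or above its range.

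*Mrpl36* and *Mrpl33*, counterparts of the small bacterial large-subunit proteins bL36 and bL33, followed. For *Mrpl36*, pan-BC libraries had 2566, 2669 and 2080 counts and rods 535, 775 and 578, giving a log2 fold change of 1.96 (SE 0.15, adjusted p = 2.18e-09). In blue cones they were 771, 949 and 1126, below every bipolar library and overlapping rods, and the change was 1.37 (SE 0.15). For *Mrpl33*, pan-BC libraries had 2092, 2096 and 1658 counts, rods 490, 599 and 591, and blue cones 434, 545 and 611. The fitted difference was 1.79 (SE 0.14) relative to rods and 1.88 (SE 0.14) relative to blue cones, and the photoreceptor populations overlapped.

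The other members past 2-fold against rods covered both subunits. In the small subunit these were *Mrps14* (5142 ± 591 in pan-BC and 1715 ± 133 in rods, SD, n = 3), *Mrps16* (824 ± 163 and 282 ± 50.3) and *Mrps6* (362 ± 51.4 and 112 ± 30). In the large subunit they included *Mrpl27* (1764 ± 119 and 533 ± 71.9), *Mrpl53* (1982 ± 234 and 610 ± 46.2), *Mrpl30* (1852 ± 163 and 644 ± 88.5) and *Mrpl28* (4864 ± 380 and 1757 ± 174). *Mrpl17*, *Mrpl52*, *Mrpl21* and *Mrpl43* completed the 14, with log2 fold changes from 1.29 to 1.44. For all 7 genes with counts given in this paragraph, the pan-BC and rod libraries did not overlap.

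**Figure D2:**
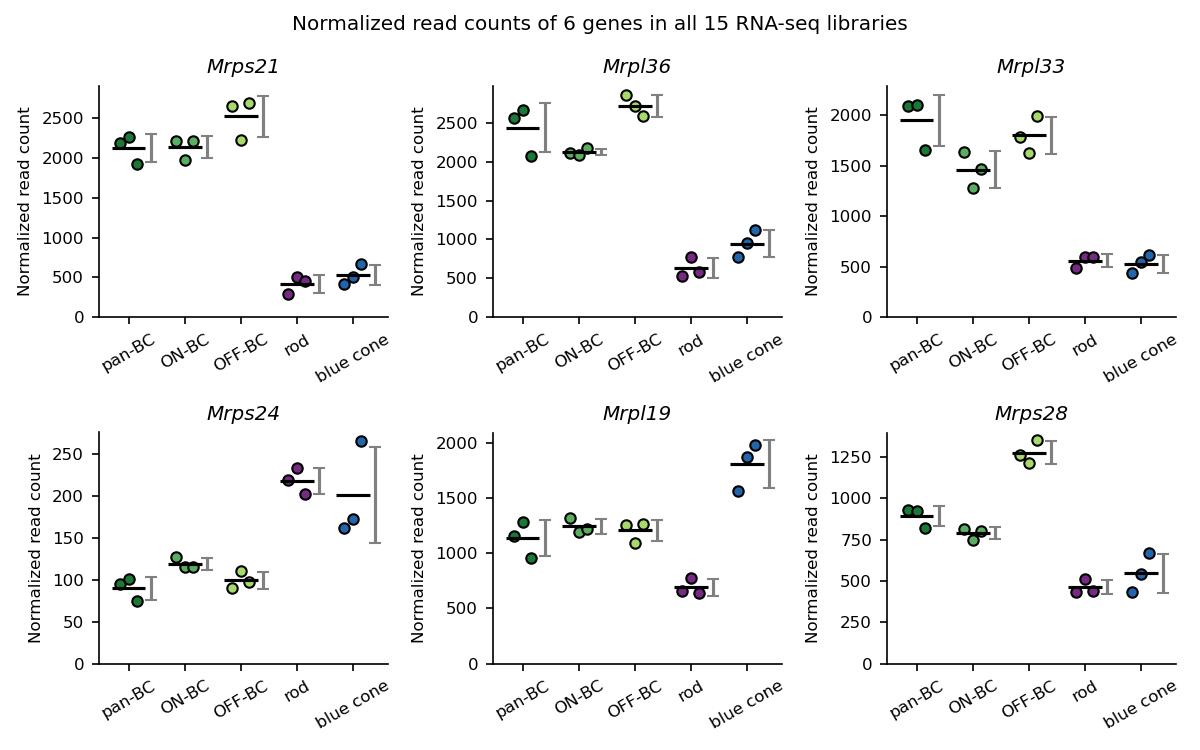
Normalized read counts of 6 genes in the 15 RNA-seq libraries, grouped by population (points, single libraries; black line, mean; grey bar, SD, n = 3; y axes start at 0). *Mrps21*, *Mrpl36* and *Mrpl33* are higher in all bipolar populations, *Mrps24* is lower, *Mrpl19* separates rods (mean 692) from blue cones (mean 1805), and *Mrps28* is highest in OFF-BC (mean 1276).

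Among the 11 genes that were lower in pan-BC than in rods, *Mrps24*, the counterpart of bacterial uS3, had the largest change. Pan-BC libraries had 94.7, 100.9 and 74.6 counts and rods 219, 234 and 202, with a log2 fold change of -1.28 (SE 0.21, adjusted p = 2.48e-05). *Mrpl1* fell by 1.13 on the log2 scale (SE 0.13), from 776 ± 63.3 in rods to 353 ± 32.7 in pan-BC (SD, n = 3). *Mrpl49* (-0.89), *Mrps22* (-0.81) and *Mrpl50* (-0.81) were lower by less than 2-fold. No overlap of libraries between the 2 populations was a condition for naming them. For 12 of the 77 genes every pan-BC library lay below every rod library, compared with 37.7% of all tested genes. *Mrps24* and *Mrpl1* were the only members whose fitted change against rods was below -1, and neither passed the 2-fold test in limma (adjusted p = 0.203 and 0.313), whereas both passed it in edgeR.

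Blue cones gave a second photoreceptor reference, which shares the pan-BC libraries with the first. Here 49 genes were higher in pan-BC (63.6%, against 42.0% of all tested genes), 9 were lower (11.7%, against 34.3%), and the median log2 fold change was 0.63, compared with 0.16 over all tested genes. Past 2-fold, 10 were higher (13.0%, against 22.7%) and 0 were lower, against 13.7%. At an unadjusted p limma again called 0 lower past 2-fold, as did edgeR with adjustment. The count higher past 2-fold was 6 with TMM scaling, 6 with DESeq2 and 21 under scaling by total reads, which raised the median of all tested genes to 0.44. In 47 genes every pan-BC library lay above every blue cone library, compared with 42.7% of all tested genes. 7 genes were past 2-fold against both photoreceptor populations, and the like share of all tested genes was not counted.

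Besides *Mrps21* and *Mrpl33*, the genes past 2-fold against blue cones were *Mrpl53* (log2 fold change 1.57), *Mrps16* (1.51), *Mrpl30* (1.44), *Mrpl4* (1.41), *Mrpl14* (1.41), *Mrpl52* (1.38), *Mrpl36* (1.37) and *Mrpl41* (1.33). *Mrpl4*, whose product lines the peptide exit tunnel, reached 1962, 2514 and 2189 counts in pan-BC and 821, 827 and 848 in blue cones. Rods, at 1170, 1119 and 1028, lay between them without overlap. *Mrps36* (1.54, SE 0.25) and *Mrpl23* (1.60, SE 0.39) had larger fitted changes than most of these but missed the 2-fold test. *Mrpl23* rested on few reads, with normalized counts of 15.9 to 22.3 in pan-BC and 3.8 to 7.4 in blue cones. The largest decreases were in *Mrps24* (-1.12), *Mrpl37* (-0.99), *Mrps2* (-0.79), *Mrps26* (-0.77) and *Mrpl19* (-0.67). Without any of pan-BC library 1, pan-BC library 2, blue cone library 1 or blue cone library 2, the count past 2-fold was 6, 4, 5 and 6.

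**Figure D3:**
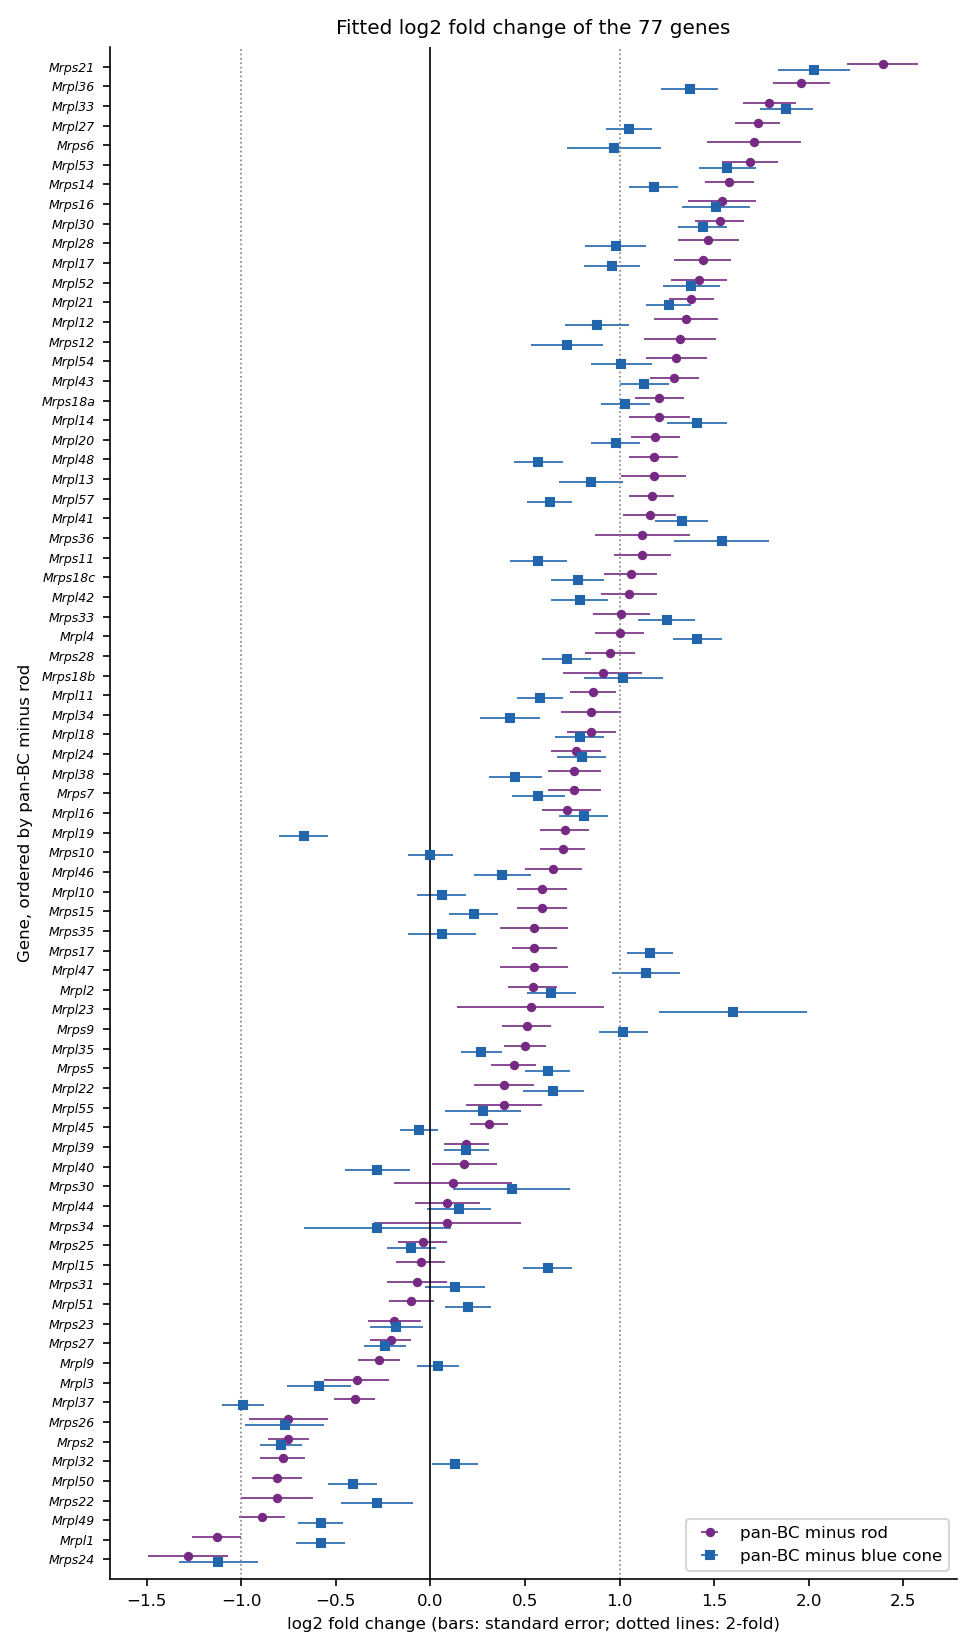
Fitted log2 fold change of each of the 77 genes (points) with its standard error (bars) for pan-BC minus rod and pan-BC minus blue cone, which share the pan-BC libraries; dotted lines mark 2-fold. Values against rods run from -1.28 (*Mrps24*) to 2.39 (*Mrps21*), and *Mrpl19* has opposite signs in the 2 comparisons.

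Counting both references, 47 genes were higher in pan-BC than in each photoreceptor population and 8 were lower than in each: *Mrpl1*, *Mrpl3*, *Mrpl37*, *Mrpl49*, *Mrpl50*, *Mrps2*, *Mrps24* and *Mrps26*. *Mrpl19* was the only gene called in opposite directions, and 11 were called against neither. Both comparisons share the pan-BC libraries, and the shares of all tested genes with these joint calls were not counted. Of 50 large-subunit genes, 35 were higher and 7 lower than in rods (median 0.77), and of 26 small-subunit genes 17 were higher and 4 lower (median 0.57). Against blue cones the medians were 0.65 and 0.57. Of the 46 genes with a bacterial counterpart, 37 were higher and 6 lower than in rods (median 0.81), whereas of the 30 mitochondria-specific genes 15 were higher and 5 lower (median 0.25). The differences between the subunits and between these classes were not tested. Over all tested genes, 44.2% were higher and 35.4% lower than in rods.

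The 3 homologues of bacterial bS18 occupy different places in the ribosome. Only *Mrps18c* was classed above as having a bacterial counterpart, and *Mrps18a* and *Mrps18b* were counted as mitochondria-specific. *Mrps18c*, in the position of the bacterial protein, was higher in pan-BC by 1.06 (SE 0.14) against rods and 0.78 against blue cones. *Mrps18b*, in the small subunit, was higher by 0.91 and 1.02, and *Mrps18a*, in the large subunit, by 1.21 and 1.03. All 6 differences passed the test against no change and none passed the 2-fold test. *Mrps30* had log2 fold changes of 0.12 (SE 0.31) and 0.43 (SE 0.31), neither called, with counts of 42.9 to 118 over all libraries. *Mrps36* was higher by 1.12 (SE 0.25) and 1.54 (SE 0.25).

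The fold changes moved with transcript length. The exons of the 77 genes span 412 to 6712 bp with a median of 1129 bp, shorter than the 3122 bp of all tested genes. Against rods, the 28 genes of up to 1000 bp had a median log2 fold change of 1.15, the 33 of 1000 to 2000 bp one of 0.55 and the 16 longer ones 0.41. All tested genes in the same ranges had medians of 1.23, 0.55 and -0.01. Against blue cones the 3 medians were 0.99, 0.43 and 0.23 for the 77 genes and 1.18, 0.33 and -0.01 for all tested genes. In the 2 shorter ranges the 77 genes thus lay within 0.2 of genes of like length. Across the 77 genes, which share libraries and are not independent, the rank correlation of length with fold change was -0.45 in the rod comparison and -0.51 in the blue cone comparison, compared with -0.08 and -0.04 over the 13172 genes with a length. The part of length in the class difference was not tested.

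**Figure D4:**
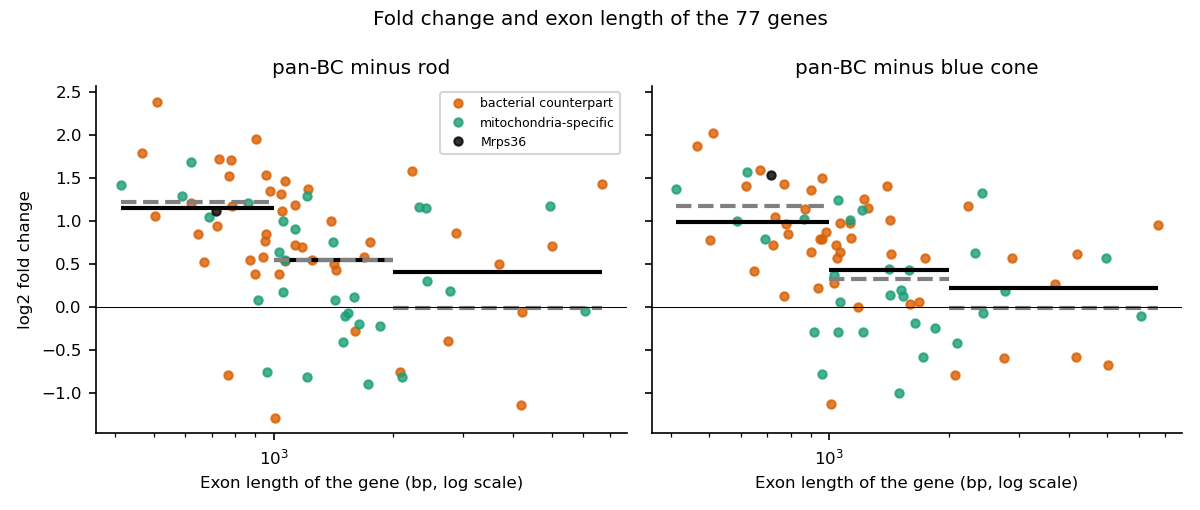
Log2 fold change of the 77 genes against exon length (log axis) for pan-BC minus rod and pan-BC minus blue cone; points are genes, coloured by evolutionary class. Solid lines are the median of the 77 genes and dashed lines that of all tested genes in 3 length ranges, 1.15 and 1.23 in genes of up to 1000 bp against rods.

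Other gene groups of mitochondrial gene expression had other values, and these lists were chosen with earlier results of these data known. Nuclear-encoded subunits of oxidative phosphorylation (OXPHOS) were higher in pan-BC than in rods for 64 of 77 and lower for 5, with a median of 1.57 and 49 past 2-fold. These are 83.1% higher and 6.49% lower, against 44.2% and 35.4% of all tested genes. Cytosolic ribosomal proteins were higher for 57 of 81 (70.4%) and lower for 7 (median 1.25). Mitochondrial aminoacyl-tRNA synthetases, which charge tRNAs for the organelle, were higher for 1 of 17 and lower for 10 (58.8%, against 35.4% of all tested genes; median -0.54). The difference was largest in *Mars2*, the methionine enzyme, at 71.8 ± 14.7 in pan-BC and 688 ± 46.8 in rods (SD, n = 3). Factors of mitoribosome assembly and rRNA modification were higher for 4 of 25 and lower for 14 (56.0%, median -0.34), led by *Mpv17l2* (54.3 ± 7.49 and 460 ± 29.2) and the rRNA methyltransferase *Nsun4* (442 ± 16.6 and 2137 ± 110). Translation factors were higher for 1 of 14 (7.14%, against 44.2% of all tested genes) and lower for 4 (28.6%, below the 35.4% of all tested genes), including *Gfm2*, a factor of ribosome recycling (log2 fold change -1.50), and *Mtif2*, an initiation factor (-1.32).

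Nuclear regulators of mitochondrial genes were higher in pan-BC than in rods for 2 of 11 and lower for 8 (72.7%, against 35.4% of all tested genes; median -1.38). *Ppargc1a*, a coactivator of mitochondrial biogenesis, was at 297 ± 23.6 in pan-BC and 3531 ± 441 in rods (SD, n = 3). *Gabpa* and *Gabpb1*, which encode the 2 kinds of subunit of an ETS-family factor, were lower by -2.04 and -1.98, and *Mycn* was higher by 2.31. Of 8 genes of mitochondrial transcription and mRNA stability, 1 was higher (12.5%, against 44.2% of all tested genes) and 5 lower (62.5%, against 35.4%). Among them *Slirp*, an mRNA-stabilising protein, was higher by 1.35 and *Mterf1a* lower by -2.07. Of 6 mitoribosomal proteins whose symbols fall outside the rule, 3 were higher and 1 lower, with *Aurkaip1* (1.56) and *Chchd1* (1.31) past 2-fold. Against blue cones, where 42.0% of all tested genes were higher and 34.3% lower, OXPHOS subunits were higher for 63 of 77 and lower for 6 (median 1.53). Cytosolic ribosomal proteins were higher for 69 of 81 and lower for 5 (median 1.80). Aminoacyl-tRNA synthetases were higher for 2 of 17 and lower for 11 (64.7%, median -0.68). Assembly factors were higher for 6 of 25 and lower for 10 (40.0%, median -0.14), near the share of all tested genes. Translation factors were higher for 2 of 14 and lower for 6 (42.9%, median -0.04). Regulators were higher for 4 of 11, all 4 past 2-fold, and lower for 6, 2 of them past 2-fold (median -0.62).

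ON and OFF bipolar cells, which depolarise and hyperpolarise to light, were compared within the bipolar class. The paper describes a repeat sort for OFF-BC only, so ON or OFF identity and the repeat sort cannot be told apart. The 77 genes had a median log2 fold change of -0.25 for ON-BC minus OFF-BC, compared with -0.02 over all tested genes. 14 genes were lower in ON-BC (18.2%, against 14.2% of all tested genes) and 2 were higher (2.6%, against 12.7%). Past 2-fold, 0 were called by limma, edgeR or DESeq2, and also 0 at an unadjusted p, whereas 2.95% of all tested genes were higher and 3.60% lower. For 34 genes every ON-BC library lay below every OFF-BC library, compared with 22.6% of all tested genes.

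*Mrps28* had the largest decrease in ON-BC. ON-BC libraries had 817, 747 and 801 counts and OFF-BC libraries 1262, 1216 and 1352, with a log2 fold change of -0.69 (SE 0.13, adjusted p = 0.000806). Pan-BC, at 929, 924 and 821, lay between them and did not reach the OFF-BC range. *Mrpl13* (-0.55), *Mrps18c* (-0.49), *Mrpl52* (-0.49) and *Mrpl17* (-0.47) were also lower in ON-BC, with adjusted p from 0.0155 to 0.0321. No overlap of libraries was a condition for naming them. *Mrps12* was lower by as much as *Mrpl13* (-0.55, adjusted p = 0.0441), but its libraries overlapped. *Mrpl13*, *Mrpl52* and *Mrpl17* each lost their call without ON-BC library 1, ON-BC library 2 or OFF-BC library 1. Without OFF-BC library 3, *Mrpl13*, *Mrpl52* and *Mrps18c* lost theirs, as did *Mrps18c* without ON-BC library 2. *Mrpl38* was higher by 0.38 (SE 0.14, adjusted p = 0.0478), but this call was lost under many alternatives. It was lost with a replicate block in all populations (adjusted p = 0.0532), total scaling (0.0537) and no filter (0.0594). It was also lost without ON-BC library 1 or 3 (adjusted p = 0.155 and 0.147). The same held without OFF-BC library 1, 2 or 3 (adjusted p = 0.0705, 0.17 and 0.0501). *Mrps34* was the other gene called higher (1.44, SE 0.39, adjusted p = 0.0112), but its libraries overlapped, at 905, 468 and 865 in ON-BC and 539, 225 and 150 in OFF-BC. It had the widest spread within populations of the 77 genes, an SD of 0.60 on the log2 scale compared with a median of 0.18.

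ON-BC and OFF-BC also differed in photoreceptor markers. Summed rod markers were 20348 to 25582 in ON-BC and 3617 to 17906 in OFF-BC, and summed cone markers were 4071 to 4703 and 20860 to 90608. No marker of these 2 lists was at 0 in either population, and their part in the ON-OFF difference was not tested. Without the third OFF-BC library, 5 genes were lower and 0 higher, and the median was -0.23. The number called was 8 without ON-BC library 1, 4 without ON-BC library 2 and 5 without OFF-BC library 1, while the median stayed between -0.33 and -0.22 over all 6 omissions. Of 81 cytosolic ribosomal protein genes, 22 were lower in ON-BC (27.2%, against 14.2% of all tested genes) and 2 higher (2.47%, against 12.7%), with a median of -0.42. Of 77 OXPHOS subunits, 5 were lower (6.49%, below the share of all tested genes) and 2 higher, with a median of -0.19.

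Rods and blue cones overlapped in the sum of the 77 genes, but single members separated them. For rod minus blue cone, 13 genes were higher (16.9%, against 27.2% of all tested genes) and 20 lower (26.0%, against 30.4%), with a median of -0.11 against 0.00. Under scaling by total reads, 11 were higher and 31 lower. Past 2-fold, 0 were higher, also at an unadjusted p and with edgeR, against 4.63% of all tested genes, and 1 was lower, against 11.3%. This gene was *Mrpl19*, the counterpart of bL19. Rod libraries had 661, 779 and 638 counts and blue cone libraries 1563, 1870 and 1984. Pan-BC lay between them, at 1158, 1285 and 961. The log2 fold change was -1.38 (SE 0.13, adjusted p for 2-fold = 0.027), and the 2-fold call was lost without blue cone library 2, blue cone library 3, rod library 1 or rod library 3.

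*Mrpl32*, whose product is matured by a mitochondrial protease before it joins the ribosome, was higher in rods, at 1205, 1305 and 1192 compared with 667, 605 and 705 in blue cones (log2 fold change 0.91, SE 0.12). Pan-BC, at 789, 749 and 625, overlapped blue cones. *Mrpl15* (0.67), *Mrps17* (0.61) and *Mrpl47* (0.59) were higher in rods, as was *Mrpl23* (1.07, SE 0.39), which had 11.9 to 14.3 normalized counts there. The *Mrpl23* call was lost with edgeR (adjusted p = 0.052), DESeq2 (adjusted p = 0.0656) and no filter on low counts (adjusted p = 0.0516), and without blue cone library 2, rod library 1 or rod library 2 (adjusted p = 0.116, 0.0614 and 0.0677). *Mrps6* (-0.73), *Mrps10* (-0.70), *Mrpl27* (-0.68) and *Mrpl48* (-0.61) were lower. For *Mrps10*, pan-BC (656 ± 55.9, SD, n = 3) and blue cones (661 ± 103) did not differ beyond their spread and rods were at 403 ± 18.1. Of the 11 nuclear regulators, 10 were higher in rods (90.9%, against 27.2% of all tested genes) and 0 lower (median 0.76). Of the 77 OXPHOS subunits, 7 were higher and 16 lower (20.8%, against 30.4% of all tested genes; median -0.19).

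Promoter accessibility was examined in ATAC-seq regions centred from 1000 bp before to 100 bp after a RefSeq start. This gave 90 regions for 75 of the 77 genes, out of 16357 tested regions at any promoter. Accessibility at these promoters was mostly lower in pan-BC than in rods, relative to 1 size factor per library. Over all 108448 tested regions the direction was the opposite, with 49.8% higher in pan-BC, 23.2% lower and a median log2 fold change of 1.16. Of the 90 regions, 53 were lower (58.9%, against 44.3% of promoter regions) and 11 higher (12.2%, against 27.7%), with a median log2 fold change of -0.66, compared with -0.37 for all promoter regions. Under TMM scaling 58 were lower and 4 higher, and the median of all promoter regions moved to -0.58. Past 2-fold, 17 regions were called (18.9%, against 30.9%). By direction, 16 were lower (17.8%, against 13.7% of promoter regions) and 1 was higher (1.11%, against 17.1%). The count past 2-fold was 31 with edgeR, 8 without pan-BC library 2, 8 without rod library 1 and 9 without rod library 2.

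The promoter region of *Mrpl55* (chr11:59202376-59202575) (GRCm38) held 70.4 and 46.8 normalized counts in pan-BC libraries, 342 and 309 in rod libraries and 202 and 203 in blue cone libraries. The log2 fold change against rods was -2.48 (SE 0.23), while its RNA had one of 0.39 (SE 0.20, adjusted p = 0.0904). *Mrpl11* (-2.58), *Mrpl12*, the stalk protein that recruits translation factors (-2.14), *Mrpl33* (-1.94) and *Mrps12*, at the decoding centre (-1.86), had the other large decreases. The *Mrpl11* value came from a region with only 21.6 and 11.4 counts in pan-BC (chr19:4962240-4962439). Its more-read region (chr19:4961961-4962160), with 64.0 and 63.9 counts in pan-BC, had -1.77. At *Mrpl33*, whose RNA was higher in pan-BC, promoter counts were 80.0 and 45.6 in pan-BC and 252 and 219 in rods. At *Mrps21* they were 96.8 and 96.9 in pan-BC and 268 and 267 in rods (-1.46).

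A single region was higher past 2-fold against rods, at *Mrpl13* (chr15:55557242-55557441). Pan-BC libraries had 106 and 167 counts there, rods 24.1 and 25.8, and blue cones 36.3 and 23.8. ON-BC (112 and 133) and OFF-BC (102 and 55.5) were also above rods. Its RNA was higher in pan-BC by 1.18 (SE 0.17). With the most-read region taken for each of 75 genes, 33 of the 51 genes with higher RNA in pan-BC than in rods had lower promoter accessibility and 4 had higher. Of the 11 genes with lower RNA, 6 had lower and 2 higher accessibility. Lower accessibility was also found in 58.9% of the 90 regions of all members, which include these genes and count some genes more than once. The 33 of 51 is to be read beside that share, and a difference between them was not tested. Across these 75 genes the rank correlation of both fold changes was -0.11, and -0.12 against blue cones, given as a description over genes that share libraries.

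**Figure D5:**
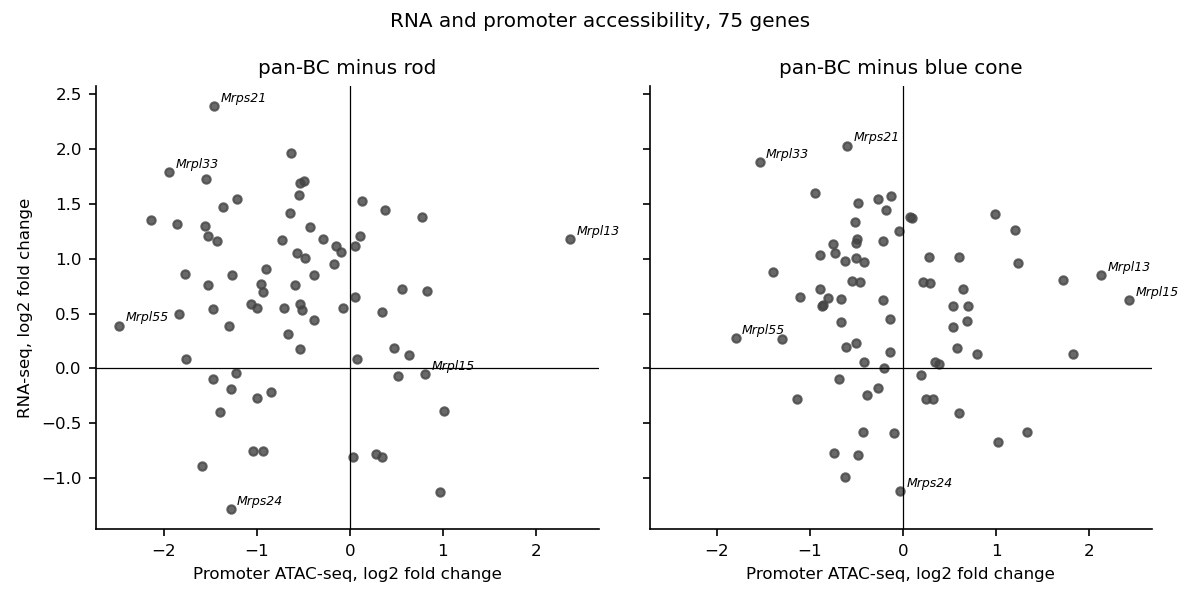
RNA-seq log2 fold change against promoter ATAC-seq log2 fold change for 75 genes, one region per gene, for pan-BC minus rod (left) and pan-BC minus blue cone (right). Most points at left lie above 0 for RNA and below 0 for accessibility, and *Mrpl13* lies farthest to the right, at 2.37.

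Against blue cones, 30 promoter regions were lower (33.3%, against 28.6% of promoter regions) and 18 higher (against 28.5%). The median was -0.21, compared with -0.05 for all promoter regions and 0.54 for all tested regions. Under TMM scaling 44 were lower and 12 higher, with the median of all promoter regions at -0.33. Past 2-fold, 5 regions were called (against 15.2%). *Mrpl15* (2.43), *Mrpl13* (2.13), *Mrps31* (1.83) and *Mrpl16* (1.72) were higher (4.44%, against 11.5% of promoter regions), and *Mrpl55* (-1.80) was lower (1.11%, against 3.72%). At *Mrpl15*, pan-BC libraries had 186 and 315 counts, rods 155 and 122, and blue cones 57.0 and 34.0. The count past 2-fold was 8 with edgeR, 2 without pan-BC library 2 and 3 without blue cone library 2.

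Between ON-BC and OFF-BC, 3 regions differed from no change (3.33%, against 14.8% of promoter regions), and 0 passed 2-fold in limma, edgeR or DESeq2, or at an unadjusted p, against 1.26%. The median was 0.07 and turned to -0.16 under TMM scaling, as that of all promoter regions turned from 0.11 to -0.11. Rods and blue cones, by contrast, differed at many promoters. Of the 90 regions, 48 were higher in rods (53.3%, against 35.0%) and 1 was lower (1.11%, against 14.4%). The median was 0.58, compared with 0.35 for all promoter regions and -0.2 for all tested regions. Past 2-fold, 0 were called by limma, 1 at an unadjusted p and 1 by edgeR, against 6.60% of promoter regions. The number different from no change, 49 in all, was 20 without rod library 1 and 23 without blue cone library 2. In the RNA of the same comparison, 12 of the 75 genes were higher in rods and 20 lower.

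Reads that fall on several genes limit some of these values. 25 of the 77 genes overlap another annotated gene, including *Mrpl27* (*Eme1*), *Mrpl53* (*Ccdc142*), *Mrpl19* (*Gcfc2*), *Mrpl14* (*Tmem63b*) and *Mrps6* (*Slc5a3*), and how the counting assigned shared reads was not tested.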

How the data were processed

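The authors aligned 50 bp single-end RNA-seq reads to GRCm38 with STAR 2.7.0d and counted them per RefSeq gene with HTSeq, and aligned ATAC-seq reads with Bowtie2 2.2.5 and called peaks with MACS2 2.1.1 (versions from the submitters' processing notes). The deposited tables hold a signal: counts per gene or region divided by 1 size factor per library. Dividing by the value of 1 read gave whole reads for all 230384 RNA and 1212862 ATAC values above 0 (tolerance 0.01 reads). Size factors were 0.817 to 1.35 for RNA and 0.670 to 1.75 for ATAC. The cDNA kit does not mark strand.

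Values were tested as log2(value + 1) with limma 3.58.1, with 1 level per population over all libraries, a trended prior, and edgeR's filter on low counts, which kept 14024 of 24062 genes and 108448 of 110715 regions. A fold change on this scale understates the change of low genes. Calls against no change and against 2-fold (treat) used an adjusted p of 0.05 over all tested features. The members, lists and tests were chosen with earlier results of these data known. Named genes were, in each RNA comparison, those past 2-fold (at most 10), the 5 with the largest change in each direction among those called with no overlap of libraries, the 5 highest and lowest levels per kb, the *Mrps18* genes, *Mrps30* and *Mrps36*, with up to 4 genes past 2-fold per other list and up to 5 promoter regions past 2-fold per comparison. *Mrps34*, *Mrpl17*, *Mrpl21*, *Mrpl43*, *Mrpl52* against rods, the *Mrpl46* and *Mrps11* pair and the printed promoters were named after their values were seen. So was *Mrps12* between ON-BC and OFF-BC. Alternatives were TMM and total scaling, pseudocount 4, no filter, a replicate block, edgeR 4.0.16, DESeq2 1.42.0, a 500 bp promoter window and leaving out each library. Both fits were tested on simulated data. Replicate libraries differed beyond sampling noise. The double-sorted green cone peak lists were not used here.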

Additional observations from a re-analysis of the deposited data

How the results depend on the processing

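The direction of the median of the 77 genes was the same under all RNA alternatives run, except rod minus blue cone, where it reached 0 without 1 library. Scaling by total reads raised the median of all tested genes from 0.21 to 0.55 against rods and from 0.16 to 0.44 against blue cones. The medians of the 77 genes became 1.07 and 0.91, and 30 and 21 genes passed 2-fold. With TMM scaling and with DESeq2, 6 genes passed 2-fold against blue cones. For promoter regions, edgeR called 31 past 2-fold against rods, 8 against blue cones and 1 between rods and blue cones. Between ON-BC and OFF-BC, TMM scaling called 6 regions different from no change, edgeR 8 and DESeq2 1. Leaving out 1 library at a time, members past 2-fold ranged from 10 to 16 against rods, 4 to 13 against blue cones and 0 to 1 between rods and blue cones. Members different from no change ranged from 4 to 16 between ON-BC and OFF-BC and 24 to 40 between rods and blue cones. Promoter regions past 2-fold ranged from 8 to 19 against rods and 2 to 6 against blue cones, and regions different from no change from 30 to 42 against blue cones, 1 to 6 between ON-BC and OFF-BC and 20 to 34 between rods and blue cones. Same-numbered ON-BC and OFF-BC libraries share a labelled postnatal age (days 43, 48 and 42), and the labels do not say whether they share animals. They were not taken as pairs: same-numbered libraries had correlations of deviations of -0.0763, 0.2218 and -0.0649. OFF-BC library 1 with ON-BC library 3 had 0.2118, and OFF-BC library 3 with ON-BC library 1 had 0.141. The remaining values were from -0.1465 to -0.0765. Whether any of these libraries share animals was not tested. A replicate block by library number in these populations gave 16 members different from no change. One in all populations gave 14 there, 63 against rods and 58 against blue cones. No block with another matching was run. Of the named genes, *Mrpl38*, *Mrpl13*, *Mrpl52*, *Mrpl17* and *Mrps18c* between ON-BC and OFF-BC and *Mrpl23*, *Mrps6* and *Mrpl47* between rods and blue cones lost their call under at least 1 alternative. The cause of these changes was not tested. With 2 ATAC-seq libraries per population, and an omission leaving 1, the lone library was assumed to vary like the others.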
